A study of Mus musculus with 4 samples.

Results

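Regions bound by the general transcription factor TFIIB in the mouse heart that overlap a CpG island but are centred more than 1000 bp from every annotated gene start were examined here. In the deposited table of regions, a region belonged to this set when it was assigned to at least 1 gene, overlapped at least 1 CpG island and had its centre over 1000 bp from the start of each gene assigned to it. Of 20364 regions, 1361 met this rule, which is 6.68% of all regions and 13.4% of the 10192 regions with a CpG island. The rule used position and island overlap and no signal. The comparison kinds were the 8358 island regions centred within 1000 bp of a start, called start-site island regions below, and the 6021 regions over 1000 bp from starts with no island.

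The data came from ChIP-seq with an antibody against TFIIB (anti-GTF2B, sc-225) on whole hearts of C57BL/6 mice. The groups were TAC, hearts taken 4 days after transaortic coarctation (a surgical narrowing of the aorta that raises the pressure load on the heart) from males of 12 weeks per the labels' protocols; neonate, hearts of mice of 1 to 2 days; and adult, normal hearts of 12 weeks, with no sham operation named. Input DNA of whole heart, with no antibody, was the fourth library. Each group had 1 library, and no label says whether it pooled animals. In the tables the 3 ChIP libraries carry codes that could not be tied to a label, so no condition was compared with another and every value below is pooled over the libraries. There is no replicate error: intervals are exact (Clopper-Pearson) 95% binomial intervals that cover counting over regions or genes only, and neighbouring regions and genes that share a region are not independent.

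TFIIB joins TBP at the core promoter, helps to place RNA polymerase II at the start site and is recruited anew at each initiation, so ChIP of TFIIB marks places where initiation complexes form. CpG islands are stretches rich in unmethylated CG dinucleotides that hold the promoters of most housekeeping and developmental genes in mammals. Many islands lie away from annotated gene starts, inside genes or between them, and some of these are known to hold the start of another transcript form or of a noncoding RNA.

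The tissue label was set against marker genes. All 7 cardiomyocyte markers looked up were in the gene table, with peak values of 31 to 207, as were the 4 endothelial (25 to 58), 4 fibroblast (20 to 83), 4 smooth muscle and pericyte (13 to 33) and 3 macrophage markers (14 to 160). The 3 erythroid markers were absent, and of 3 neuronal and Schwann markers Snap25 was absent. Of the longer lists, 3 of 10 erythroid and 6 of 13 neuronal and Schwann genes were in the table. The peak value is a whole-number signal that the authors deposited for each gene, the highest in any library over all its regions; neither its scale nor its relation to depth is stated. In whole tissue a gene bound in few cells and a gene bound weakly in many cannot be told apart.

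The sequences that bear most directly on this set are those of transcripts that start, by annotation, some distance from an island region. The region sequences themselves lie in build mm9, for which no genome was used here. Of the 131 microRNA genes in the gene table, 38 (29.0%, interval 21.4 to 37.6) were assigned 28 of the island regions, against 13.2% of all 14469 genes. The annotated start of a microRNA gene is the hairpin that is cut out of a longer primary transcript, so the promoter is known to lie upstream of it. For 26 of the 38 an island region lay upstream without holding a start, and 11 of the 38 also had a region centred within 1000 bp of the hairpin. Among all upstream island regions, 5 were made of 3 or more called intervals and shared by at least 2 microRNA genes, and they stood before 17 hairpins; the one before miR-132 and miR-212 held the annotated start of another gene. Their mature sequences are shown with the seed (bases 2 to 8, which pairs with target messages) in capitals, as listed by RefSeq for build GRCm38.p6, where 35 of the 38 genes matched an entry.

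Before the miR-17-92 cluster, which is known to promote proliferation, a region of 2732 bp made of 6 intervals lay at chr14:115439371-115442103 (mm9). It was centred 2155 to 2911 bp upstream of the 6 hairpins, was the only region of each, and had a peak value of 33. The cluster holds the seeds AAAGUGC and GUGCAAA 2 times each:
mmu-miR-17-5p: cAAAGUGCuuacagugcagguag
mmu-miR-20a-5p: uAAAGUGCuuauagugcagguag
mmu-miR-18a-5p: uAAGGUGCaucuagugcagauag
mmu-miR-19a-3p: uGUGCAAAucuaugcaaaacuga
mmu-miR-19b-3p: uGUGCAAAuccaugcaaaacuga
mmu-miR-92a-3p: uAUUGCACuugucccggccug

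Upstream of miR-23a, miR-27a and miR-24-2 lay a region of 7637 bp, 7 intervals and 3 islands (chr8:86721018-86728655), centred 7580 to 7877 bp from the hairpins, which also had a start-site region of their own. The peak value of these 3 genes was 161, over 3 regions. Their seeds all differ:
mmu-miR-23a-3p: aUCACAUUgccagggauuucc
mmu-miR-27a-3p: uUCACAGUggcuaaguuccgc
mmu-miR-24-3p: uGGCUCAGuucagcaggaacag

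Hairpins with the seed GAGGUAG of the let-7 family, which is known to restrain growth genes, lay downstream of 2 of the regions. The first, of 2115 bp and 3 intervals (chr13:48640502-48642617), was centred 7919 to 10077 bp upstream of let-7a-1, let-7f-1 and let-7d, was their only region and had a peak value of 59. The other, of 3221 bp and 5 intervals (chr17:17962671-17965892), was centred 2870 to 3494 bp upstream of miR-99b, let-7e and miR-125a, whose peak value was 50 over 2 regions:
mmu-let-7a-5p: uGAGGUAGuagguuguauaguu
mmu-let-7f-5p: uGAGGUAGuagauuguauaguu
mmu-let-7d-5p: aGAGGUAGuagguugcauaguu
mmu-let-7e-5p: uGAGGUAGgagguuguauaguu
mmu-miR-99b-5p: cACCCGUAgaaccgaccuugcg
mmu-miR-125a-5p: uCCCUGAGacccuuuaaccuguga

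MiR-132 and miR-212, which share a seed, had a region of 4919 bp and 6 intervals (chr11:74978244-74983163) centred 6480 and 6186 bp upstream. It held the annotated start of another gene. It was also assigned to Hic1, a transcriptional repressor, and to Smg6, LOC668604, Ovca2 and Dph1. The peak value of both microRNA genes was 54 over 4 regions, and their hairpins had a start-site region as well:
mmu-miR-132-3p: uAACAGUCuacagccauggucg
mmu-miR-212-3p: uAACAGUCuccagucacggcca

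Promoters of 2 genes with differently placed island regions are shown, with every CG in capitals. Of the 1361 regions, 111 (8.16%, 6.76 to 9.74) held a start although their centre was over 1000 bp from it, because they were long. Cyr61 (now Ccn1), a secreted growth-regulatory protein, was such a gene: its only region, of 5503 bp, 4 intervals and 2 islands, ran over the start, with a peak value of 226. In Pde4d, a phosphodiesterase that breaks down cyclic AMP, the island region lay deep in the gene and the start had no region. It was the farthest case among regions of 3 or more intervals, with an island region of 1472 bp and 3 intervals 1248996 bp from the annotated start. The 300 bases printed for each are 250 before to 50 after the RefSeq start of build GRCm38.p6, Ccn1 on the minus strand of chr3:145649936-145650235 and Pde4d on the plus strand of chr13:108653927-108654226. They hold 20 and 2 CG dinucleotides, where the median of all 32851 RefSeq promoters of the same length was 7 (quartiles 3 and 20). TATAAA, searched on both strands, was in the Ccn1 sequence and not in that of Pde4d, and in 13.6% of the RefSeq promoters. The RefSeq start of a gene need not be the start in the mm9 tables.
Ccn1: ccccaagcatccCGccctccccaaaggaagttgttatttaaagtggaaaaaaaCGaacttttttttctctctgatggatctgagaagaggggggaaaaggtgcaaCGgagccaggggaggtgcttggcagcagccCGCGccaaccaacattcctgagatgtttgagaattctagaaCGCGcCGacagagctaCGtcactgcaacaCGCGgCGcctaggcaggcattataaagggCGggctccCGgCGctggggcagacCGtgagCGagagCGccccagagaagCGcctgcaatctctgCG
Pde4d: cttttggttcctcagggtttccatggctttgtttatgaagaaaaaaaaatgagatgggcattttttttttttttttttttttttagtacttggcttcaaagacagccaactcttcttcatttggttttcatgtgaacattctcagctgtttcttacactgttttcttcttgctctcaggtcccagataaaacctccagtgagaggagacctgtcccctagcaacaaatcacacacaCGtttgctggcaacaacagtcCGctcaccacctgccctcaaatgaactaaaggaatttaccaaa

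The island regions away from starts were made of more called intervals than other regions away from starts. A region is a merger of intervals called in single libraries, so a region of 1 interval was seen in 1 library, while several intervals can come from 1 library or more. Among the 1361 regions, 398 (29.2%, 26.8 to 31.7) were made of 1 interval and 629 (46.2%, 43.5 to 48.9) of 3 or more. The start-site island regions had 14.5% and 62.2%, and the regions without island away from starts 76.0% and 6.23%. Over all 20364 regions the shares were 44.2% and 34.3%. The island regions away from starts thus lay between the other classes on both measures, nearer to the start-site island regions.

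The island regions were also compared by distance from the start. Among island regions centred 1 to 2 kb from the nearest start (339 regions), 51.6% (46.2 to 57.1) had 3 or more intervals; the share was 39.9% (34.7 to 45.4) at 2 to 5 kb (338), 45.1% at 5 to 20 kb (435) and 49.4% over 20 kb (249, 43.0 to 55.8). The intervals of the nearest classes do not overlap. The 1 to 2 kb class, however, held 107 of the 111 regions that held a start, and 100 of the 111 had 3 or more intervals. Shares by distance were not computed without these regions. Whether the classes keep this order among regions that held no start was therefore not tested. Regions without island held 7.38%, 6.08%, 6.52% and 5.84% in the same 4 classes. With the regions that held a start counted, the share at every distance was at least 6 times as high with an island as without. The share of 1 interval stayed between 28.1% and 29.9% for island regions and between 74.7% and 77.7% for regions without island.

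**Figure D1:**
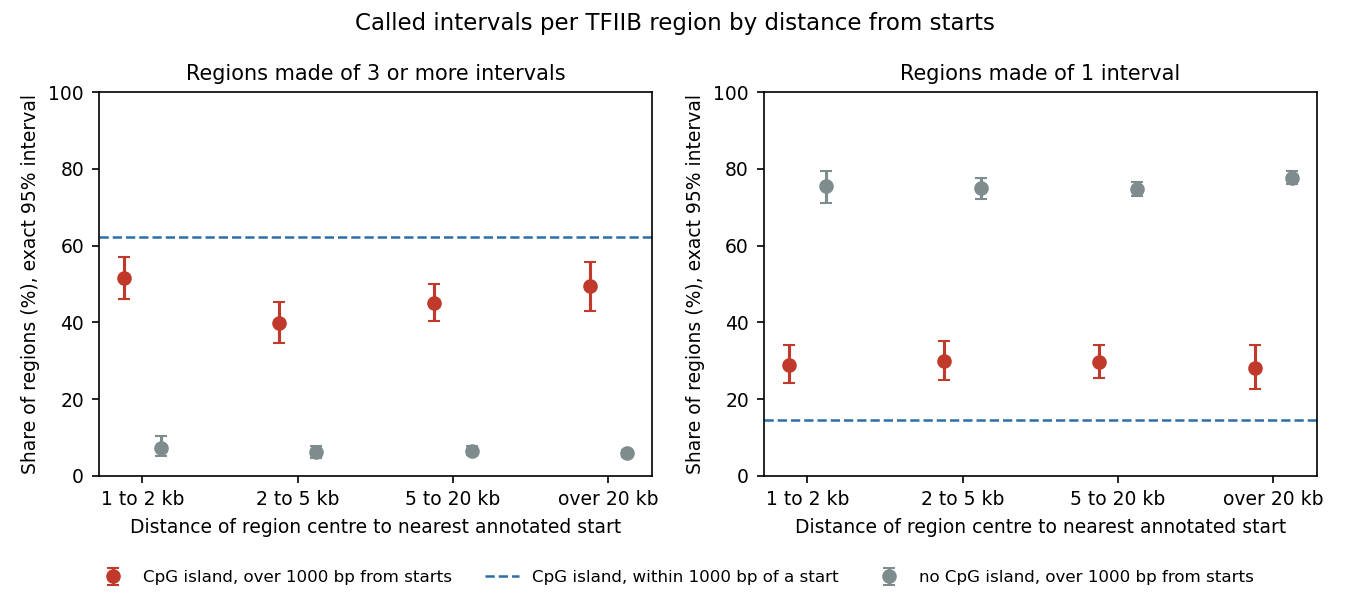
Share of regions (%, vertical axis) made of 3 or more intervals (left) and of 1 interval (right) by distance of the region centre to the nearest start, for island regions away from starts (red) and regions without island away from starts (grey), with exact 95% intervals; the dashed blue line is the value of start-site island regions. Red points stay between 39.9% and 51.6% on the left at all distances, and grey points between 5.84% and 7.38%.

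Region length moved with the number of intervals. The island regions away from starts were 250 to 11370 bp long with a median of 1375 bp (quartiles 961 and 1988), against 1484 bp for start-site island regions and 833 bp for regions without island. Within each of 4 length classes the 3 kinds kept their order. Under 750 bp the share with 3 or more intervals was 1.56% (3 of 192, 0.323 to 4.5) for island regions away from starts and 6.35% for start-site island regions. For regions without island it was 0.735% (18 of 2450, 0.436 to 1.16), so the intervals of the kinds away from starts overlap in this class. Between 750 and 1200 bp it was 21.6%, 35.0% and 4.24%, between 1200 and 2000 bp 56.3%, 68.7% and 14.5%, and over 2000 bp 81.9%, 87.6% and 39.8%, in the same order of kinds. A region merged from more intervals can be longer for that reason alone, so length and number of intervals are not independent measures.

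Signal followed the same order. A peak value belongs to 1 region only where the gene has no other region, which held for genes of 336 of the island regions away from starts. Their median was 26.5 (quartiles 16 and 41; interval of the median 24 to 30), against 33 for 4565 start-site island regions (24 and 44) and 14 for 599 regions without island (11 and 18). The highest value was 231, 260 and 170. Values differed by number of intervals within each kind. Island regions of 1, 2 and 3 or more intervals away from starts had medians of 14, 21 and 39, start-site island regions 18, 27 and 40, and regions without island 13, 19 and 27. With distance the median of the island regions was 28 at 1 to 2 kb, 24 at 2 to 5 kb, 28 at 5 to 20 kb and 25.5 over 20 kb, a narrower span than the quartiles within any of these classes.

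**Figure D2:**
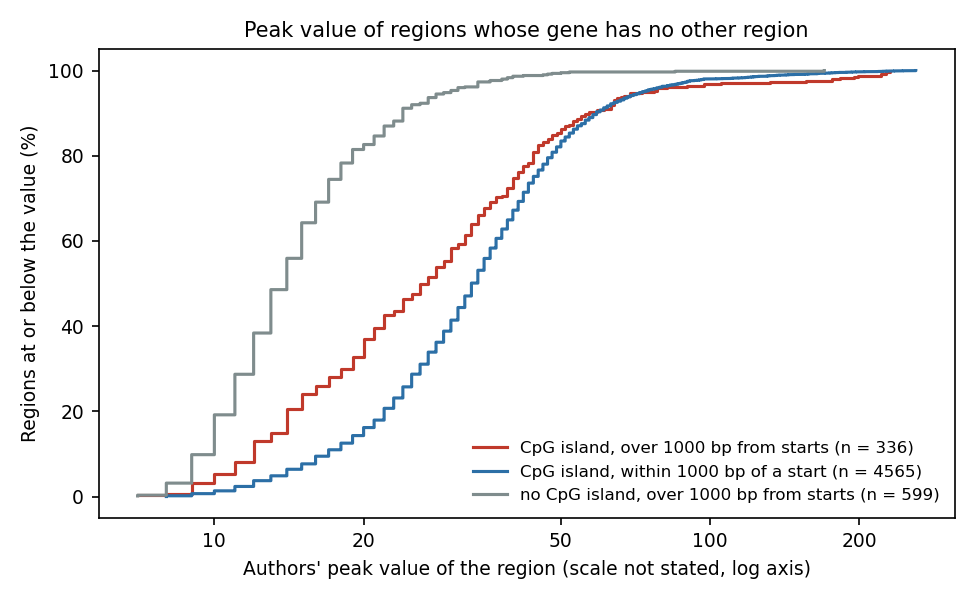
Share of regions (%, vertical axis) at or below a peak value (horizontal log axis, the authors' signal on an unstated scale) for regions whose gene has no other region. The curve of 336 island regions away from starts lies between that of 4565 start-site island regions, with medians of 26.5 and 33, and that of 599 regions without island, with a median of 14.

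Most of the regions lay inside genes. Of the 1361, 769 (56.5%, 53.8 to 59.2) were centred inside a gene and held no start, 311 (22.9%) lay upstream of a start, 170 (12.5%) lay beyond a gene end and 111 held a start. For regions without island the share inside genes was 71.0%. The 111 that held a start had a median length of 3954 bp, 90.1% had 3 or more intervals and none had 1, which allows a share of up to 3.27% by the exact interval. A region centred over 1000 bp from a start can hold it only if longer than 2000 bp. Their length was thus set by the rule. Of all 337 island regions away from starts over 2000 bp, 81.9% had 3 or more intervals and 3.56% had 1. The share of 3 or more was 40.7% inside genes, 46.6% upstream and 41.8% beyond an end, at median lengths of 1271, 1401 and 1302 bp. These classes were not matched for length. Single-region peak values had medians of 44 (31 regions) with a start held, 24 (189) inside genes, 26 (77) upstream and 24 (39) beyond an end. The deposited table itself counted a promoter for 705 of the 1361 regions, among them 594 of the 1250 that held no annotated start. The distance of these 705 was 1001 to 8723 bp. A promoter was also counted for 12181 of all 20364 regions and for 1507 of the 6021 regions without island away from starts. The share fell with distance in both kinds away from starts. With an island and without, it was 79.3% and 69.5% at 2 to 5 kb, and 22.5% and 17.3% at 5 to 20 kb.

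Inside genes the island regions leaned to the 5′ part of the gene. Of 799 pairs of a region and the gene it lay in, 30.5% (27.4 to 33.9) were centred in the first 20% of the gene's length, and 19.9%, 16.9%, 15.1% and 17.5% in the following stretches of 20%. For 4340 such pairs of regions without island the shares were 21.7%, 22.5%, 19.2%, 18.3% and 18.3%. The first stretch here begins 1000 bp from the start by the rule, which takes away more of a short gene than of a long one.

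The farthest regions of 3 or more intervals were, by that choice, mostly in long genes. Besides Pde4d, whose gene spans 1297 kb and whose 5 other regions had no island, Auts2, a nuclear protein tied to neurodevelopment, had an island region of 2239 bp and 4 intervals 1004297 bp from its start (chr5:132012797-132015036). Auts2 also had an island region of 1441 bp centred 1200 bp upstream of its start. Camta1, a calmodulin-binding transcription activator, had island regions of 3 intervals 753486 and 732953 bp from a start that itself had a region. Rora, a nuclear receptor, had a region of 2222 bp 636516 bp inside, and also a start-site region. Palladin (Palld), an actin-bundling protein of the Z disc and stress fibres, had island regions at 311546 bp (3 intervals) and 142768 bp (1 interval). In 2010111I01Rik (now Aopep), which encodes an aminopeptidase, a region of 3597 bp lay 226664 bp from a start without a region, and Cacna1a, the pore subunit of a neuronal calcium channel, had one of 1100 bp at 224141 bp, close to the gene end. The last pair lay beyond the end of LOC100039508, a predicted gene, at 217484 and 214719 bp.

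**Figure D3:**
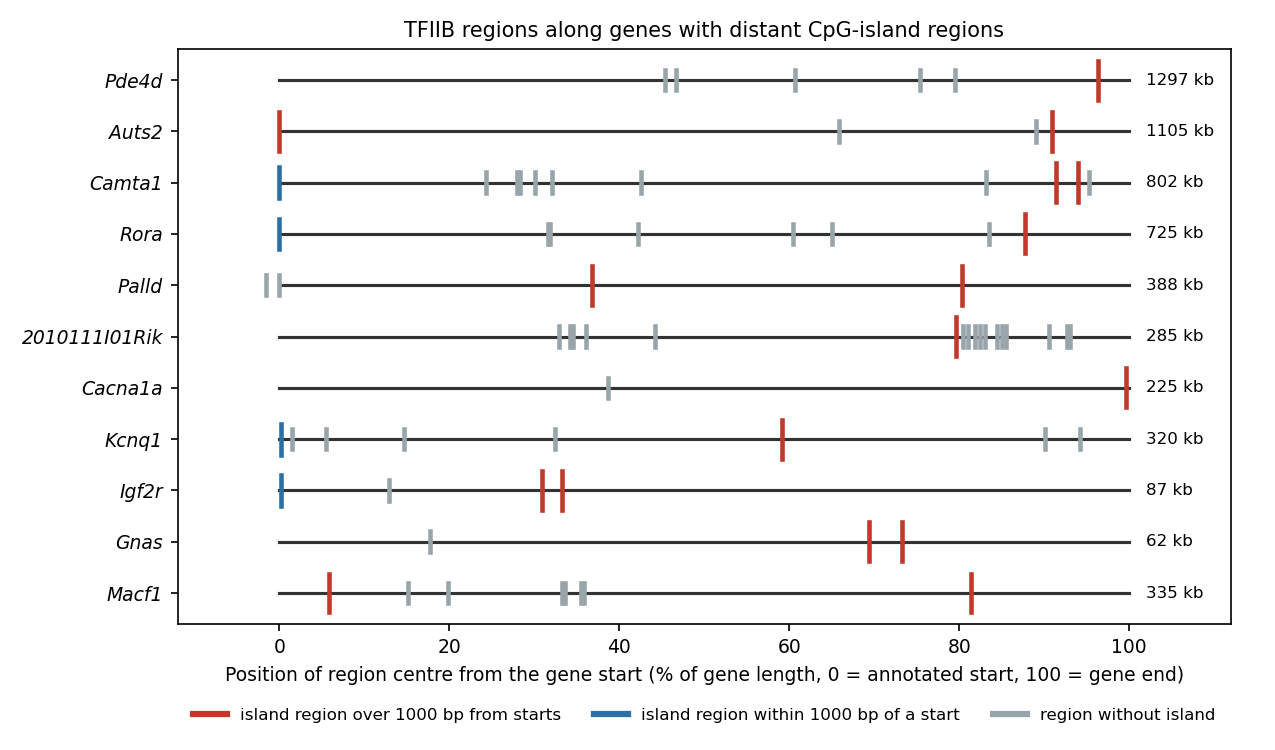
Centres of all called regions along 11 genes, as percent of gene length from the annotated start (0) to the gene end (100), with the gene length in kb at the right. Red marks are island regions away from starts, blue marks start-site island regions and grey marks regions without island; in Pde4d, Camta1 and Rora the red marks lie beyond 85% of the gene, and Pde4d, Gnas and Macf1, among others, have no mark at their start.

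In all, 1909 of 14469 genes (13.2%, 12.6 to 13.8) were assigned at least 1 of the 1361 regions. Of these, 956 (50.1%, 47.8 to 52.3) also had a region centred within 1000 bp of their own start, against 80.5% of the 12560 genes with none and 76.5% of all genes. A region centred farther off can still cover the start, and 1059 of the 1909 (55.5%, 53.2 to 57.7) had their own start inside a region. A gene is in the table only if it has a region, so a gene with none of the 1361 must have another, most often at its start, and the gap between these shares is in part set by that. For 752 genes the island region lay inside the gene: 336 (44.7%) had a start-site region and 416 (55.3%) had none. For 405 genes the island region was the only region. Most genes, 1692, had 1 such region, 193 had 2, 18 had 3, 5 had 4 and Nfix had 5.

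Of the 6 genes with 4 or more of the regions, 4 lay on 1 stretch of chromosome 8. Nfix, a transcription factor of the nuclear factor I family, was assigned 4 regions beyond its end that it shared with Lyl1, a haematopoietic transcription factor, Trmt1 and LOC100039997, and 1 region of 1069 bp that lay 15753 bp inside the gene alone. Those 4 regions ran from chr8:87224958 to 87232496, had 2, 1, 1 and 3 intervals, and the first held the start of Lyl1. Jmjd3 (now Kdm6b), a demethylase of histone H3 lysine residues, had 4, at 5010 bp upstream (4 intervals) and at 3462 bp (3), 13533 bp (1) and 16744 bp (3) downstream of its start, with no start-site region. Midn, a gene of ubiquitin-independent protein turnover, had 4 as well, 1 of which held its start and was 9022 bp long with 6 intervals.

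Transcription factors of the heart were among the lists with the highest share. Of 37 cardiac transcription factors in the table, 19 (51.4%, 34.4 to 68.1) were assigned an island region centred away from the start, against 13.2% of all genes. With 2 or more intervals required, the share was 35.1% (20.2 to 52.5), against 9.77% of all genes. A region of 3 or more intervals was assigned to 937 of all 1909 genes with an island region away from starts, and to 7 of these 19. The 30 regions of the 19 genes had a median of 1.5 intervals, and 5 genes had 1 that held the start. Gata4, a zinc finger factor needed for heart formation, had 3: 1 of 4713 bp and 5 intervals that held the start, and 2 of 1 interval at 4242 bp inside and 6591 bp upstream. Mef2c, a MADS-box factor of cardiac muscle, had 1 of 2595 bp and 4 intervals at 20359 bp inside the gene and no start-site region. Its relative Mef2d had 1 of 6537 bp that held the start and 1 of 3 intervals at 35465 bp, beyond its end. Nfatc1, a calcium-responsive factor of the endocardium and valves, had 1 of 3 intervals at 5111 bp inside and 1 of 5 intervals that held the start. Meis1, a homeobox factor that limits cardiomyocyte division, had regions of 5 and 1 intervals at 1036 and 8759 bp upstream. The nearer of these held the start. Casz1 had 3, of which the nearest held the start and the others, of 1 interval each, lay at 96808 and 147683 bp. The other developmental transcription factors had 13 of 34 (38.2%, 22.2 to 56.4), or 20.6% (8.7 to 37.9) when 2 or more intervals were required, among them Prox1, Sox4 and Sox6 with 3 intervals each at 1433 bp inside, 5179 bp upstream and 2859 bp upstream.

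Immediate early genes, which are induced within minutes of a stimulus, had 25 of 51 (49.0%, 34.8 to 63.4). Their regions had a median of 3 intervals. A region of 3 or more was assigned to 937 of all 1909 genes with an island region away from starts, and to 17 of these 25. In 6 the region held the start; for the other genes it lay upstream, inside or downstream of the gene without the start. Per1, a clock gene, had the longest of those that held the start, 6542 bp with 6 intervals and its centre 1324 bp upstream. Fosl2, a subunit of AP-1, had 5231 bp with 6 intervals, Cebpb, a leucine zipper factor, 5007 bp with 5, and Zfp36, an RNA-binding protein that speeds message decay, 5076 bp with 4. Cebpd, a relative of Cebpb, had 4381 bp with 4 intervals and a peak value of 176, from its only region. These regions of Fosl2, Cebpb, Zfp36 and Cebpd held the start too. The median peak value over all 51 genes in the table was 133, against 34 for all genes, a value that takes in their start-site regions.

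Chromatin regulators had 19 of 53 (35.8%, 23.1 to 50.2), 12 of them with a region of 3 or more intervals. The same held for 937 of all 1909 genes with an island region away from starts. Brd2, a bromodomain reader of acetylated histones, had the highest peak value among genes whose only region was of this kind, 231, from 7545 bp and 5 intervals at chr17:34253688-34261233, which held its start. Smarca2, an ATPase of the BAF remodelling complex, had 3988 bp with 6 intervals centred 1043 bp inside. Smarcd3, a heart-enriched subunit of that complex, had 4435 bp with 6 intervals centred 1251 bp upstream. Both of these regions held the start. Setd1b, a histone H3 methyltransferase, had 2320 bp with 5 intervals at 10668 bp upstream and no start-site region.

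Imprinted genes, of which only the maternal or the paternal copy is expressed, had 10 of 34 (29.4%, 15.1 to 47.5). Without regions that held a start it was 23.5% (10.7 to 41.2), against 12.1% of all genes. With 2 or more intervals required it was 26.5% (12.9 to 44.4), against 9.77%. The 11 regions had a median of 3 intervals, where 46.2% of all 1361 regions had 3 or more. Kcnq1, a cardiac potassium channel gene, had an island region of 1498 bp, 4 intervals and 2 islands 188989 bp inside the gene (chr7:150481399-150482897), as well as a start-site region. An intron of Kcnq1 is known to hold the start of the noncoding RNA Kcnq1ot1, which is not in the gene table. Igf2r, a receptor that clears IGF2, had island regions at 27019 bp (1 interval) and 29040 bp (3 intervals, 2768 bp) inside the gene. The table places them 5608 and 7629 bp upstream of the start it gives for Air, the antisense RNA known to silence Igf2r. Gnas, which encodes a stimulatory G protein subunit and is known to have several alternative starts, had regions of 3 intervals at 43345 and 45746 bp inside the gene and none at its annotated start. Grb10, an adaptor that dampens insulin signalling, had 1 of 3 intervals at 11246 bp, and H13 had 1 of 3 intervals at 38134 bp, beyond its end.

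Genes of contraction and cell structure were assigned such regions as well. The adult sarcomere list had 8 of 37 (21.6%, 9.83 to 38.2). The intervals of this list and of the calcium handling and hypertrophy lists below include the 13.2% of all genes. Plec1 (now Plec), a linker of intermediate filaments, had 3: 6449 bp with 4 intervals at 33391 bp inside, 1802 bp with 3 at 2264 bp, and 1607 bp with 2 centred 1169 bp upstream, with no start-site region. Tpm1, the tropomyosin of cardiac thin filaments, had 1 of 3 intervals at 5534 bp inside, and Ldb3, a Z-disc protein, 1 of 3 intervals at 39366 bp inside. Mybpc3, cardiac myosin-binding protein C, had 669 bp with 3 intervals at 2821 bp upstream. The cytoskeleton and focal adhesion list had 12 of 42 (28.6%, 15.7 to 44.6). Macf1, a giant linker of actin and microtubules, had regions of 4 and 3 intervals at 19672 and 272298 bp inside the gene and none at its start. Calcium handling and ion channel genes had 7 of 41 (17.1%, 7.15 to 32.1), or 4.88% (0.596 to 16.5) when 2 or more intervals were required. Most had 1 interval, such as Slc8a1, the sodium-calcium exchanger, at 68654 bp and Cacna1c, the L-type channel pore, at 88502 bp. Hypertrophy markers had 5 of 19 (26.3%, 9.15 to 51.2). Gdf15, a stress-induced secreted protein, had only 1 region, 2532 bp with 5 intervals centred 1337 bp inside, and Acta1, skeletal actin, had 397 bp with 1 interval at 2626 bp.

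The lowest shares among lists of at least 20 genes were those of housekeeping and matrix genes. Cytosolic ribosomal protein genes had 2 of 45 (4.44%, 0.543 to 15.1), RNA splicing genes 2 of 28 (7.14%), extracellular matrix genes 6 of 60, oxidative phosphorylation genes 4 of 39 (10.3%) and genes of the transcription machinery 7 of 56 (12.5%). The intervals of these 5 lists all include the 13.2% of all genes. Growth factor signalling genes had 16 of 87 (18.4%) and zinc finger genes of the Zfp series 39 of 238 (16.4%), and these intervals include 13.2% too. Among cell type markers the counts were 9 of 32 for endothelial (28.1%), 3 of 14 for smooth muscle and pericyte, 1 of 12 for fibroblast, 2 of 11 for macrophage and leukocyte, 1 of 6 for neuronal and Schwann and 1 of 3 for erythroid genes. Nos3, the endothelial nitric oxide synthase, had regions of 3 intervals at 18872 bp inside and at 23087 bp, beyond its end. Protocadherins, cell adhesion proteins, had 24 of 30, or 6.67% when 2 or more intervals were required, on 7 regions: 20 entries of the gamma cluster share 1 region of 802 bp and 1 interval on chromosome 18. Likewise 3 Hoxb genes, the 3 of 12 homeobox cluster genes, share 1 region of 358 bp and 1 interval, and 1 of 8 small nucleolar RNA genes had a region.

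**Figure D4:**
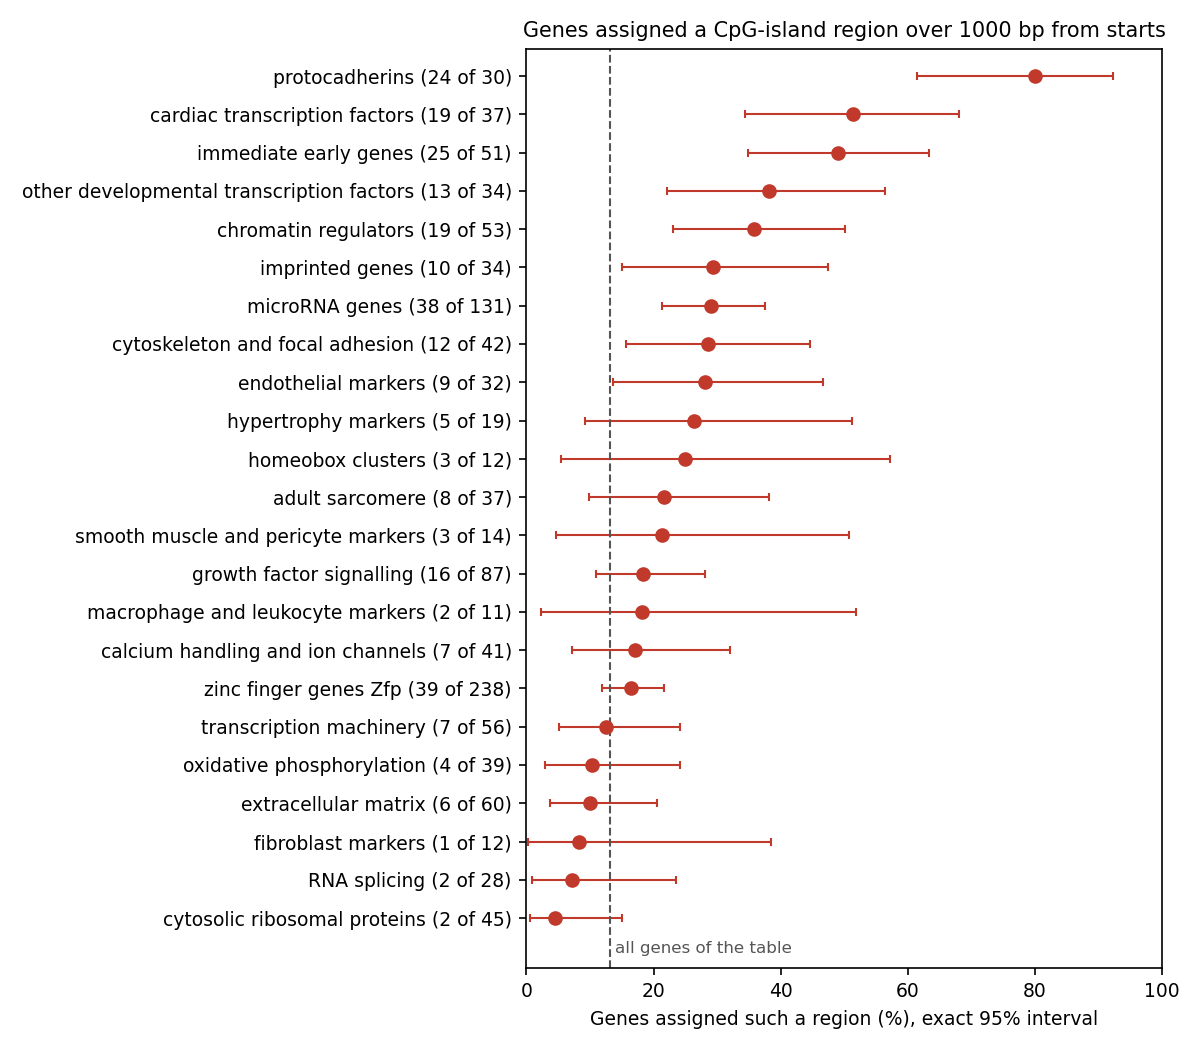
Share of the genes of each list in the gene table (%, horizontal axis, exact 95% interval) that were assigned an island region away from starts, for lists with at least 10 genes in the table, with the counts beside the names and the 13.2% of all genes as a dashed line. Cardiac transcription factors (51.4%) and immediate early genes (49.0%) lie far right of the line and cytosolic ribosomal protein genes (4.44%) left of it; protocadherin genes share few regions.

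Gene length, island content and the sharing of regions between genes were not matched across lists, and their part in the shares was not tested.

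The highest and the longest of the regions were mostly those that ran over a start. By peak value of genes with a single region, 7 of the top 10 held a start, and so did 7 of the 10 longest regions. Only regions over 2000 bp can hold a start in this set, so the count by length was in part set by the rule. After Brd2 and Cyr61 came Sgk (now Sgk1), a kinase induced by glucocorticoids, with 199 from 4477 bp, then Cebpd, Arrdc3, an arrestin-like adaptor, with 156, and Nfe2l1, a leucine zipper factor of the proteasome response, with 132. A region shared by Mirn715 and LOC627695 (chr17:39979835-39985880) had 226; neither name matched RefSeq as a miRNA or gene symbol. The 3 that held no start had values of 221, 195 and 183. That with 221, of 1469 bp, lay beyond the ends of 1700013F07Rik and Tmem167b. That with 195, of 2135 bp, was centred inside LOC100041277 and reached over the end of Tex2. That with 183, of 2165 bp, was centred beyond the ends of Prss12 and EG668804 and reached over the end of EG668804. By length, the first was the region at the start of Zfp469 (Tnrc18 in RefSeq), 11370 bp with 13 intervals and 3 islands. The second, 10563 bp with 10 intervals (chr19:5840225-5850788), reached over the annotated end of the entry 2310043N10Rik. By gene ID this entry is Neat1 in RefSeq, the RNA that builds paraspeckles. The entry spans 49178 bp on the plus strand, and neither its strand nor its ends were checked against RefSeq. Which end of Neat1 the region covers therefore cannot be told here. The centre of the region was 49105 bp from the start given for the entry, which had no region. A further island region of 3530 bp lay at 7296 bp. Mknk2, a kinase of the translation factor eIF4E, had 6743 bp with 4 intervals centred 5022 bp upstream, and a peak value of 281 over 6 regions, none of them at its annotated start.

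Regions on both sides of the limit included some that held the start. Just inside lay those of Plod1 (1001 bp upstream, 3635 bp long), Sall4 (1002 bp), Nfatc4 (1005 bp), Tmod1 (1006 bp) and Slc6a8 (1007 bp). Just outside lay those of Impact (999 bp), 2410075B13Rik and Tgfb1 (997 bp each), and Efs and Pitpnm1 (996 bp upstream each). The region of Plod1 and that of Tmod1 held the start, as did those of Impact, Tgfb1 and Pitpnm1.

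The regions were often near other TFIIB regions. For 44.4% (41.7 to 47.1) another region lay within 5 kb, against 19% of start-site island regions and 49.4% of regions without island away from starts. For 21.2% the nearest region was a start-site region within 5 kb, and 28.5% had no other region within 20 kb. By chromosome, their share of island regions was 10.1% on chromosome 16 to 17.8% on chromosome 14, with the most, 136, on chromosome 11 and the fewest, 30, on X.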

How the data were processed

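Whole-heart chromatin of 3 groups, 1 library each, and input DNA were sequenced; per the labels' protocols, a service company did the ChIP, the libraries and the sequencing, and the submitters' processing notes name build mm9. For aligner, caller, thresholds and use of input: not given in the sources used here. Sequencing depth is unknown. Per the file headers, the deposited tables give merged regions (position, length, and numbers of intervals, CpG islands, promoters and genes) and genes with a peak value, a signal that the authors deposited as whole numbers. Number of intervals per region is a count that the authors deposited. Distances were checked: 99.99% of pairs of region and gene matched centre minus start within 1 bp.

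The 15 columns of per-library values carry codes that match no label and were not used. Regions were classed by the distance limit of 1000 bp, shares were given with exact intervals and no test was run. The members and the 26 gene lists were chosen with earlier results of these data known. Genes were named by rule: the 10 farthest regions of 3 or more intervals, the 10 highest peak values of genes with 1 region, the 10 longest regions, genes with 3 or more regions, up to 6 genes of each list by intervals and length, the 5 regions on either side of the limit, and the 10 highest peak values outside the lists. The microRNA clusters, Acta1, Cacna1c, Slc8a1 and Air and the choice among rule-named genes followed after values were seen. Of the gene IDs, 13659 matched RefSeq symbols. A comparison of CpG content at the annotated starts was not made, since too few genes matched the promoter table (69.8% of the 752 genes with an inner region and 73.3% of all genes). Python 3.11.15, pandas 2.3.3, NumPy 2.4.6, SciPy 1.17.1 and matplotlib 3.10.9 were used, and the classing was tested on simulated data.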

Additional observations from a re-analysis of the deposited data

How the results depend on the processing

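No paired analysis was possible because each group has 1 library and no library column could be tied to a group. The alternatives were a distance limit of 500, 2000 or 5000 bp, leaving out regions that held a start, and keeping regions of 2 or more intervals; those on the share inside genes were chosen after seeing the data. A limit of 500 bp moved most values: 2076 regions, 32.9% with a start held, 41.6% inside genes, 25.1% of 1 interval, 53.2% of 3 or more, a median length of 1609 bp, and 35.1% of genes with a start-site region too. Limits of 2000 and 5000 bp gave 0.391% and 0% with a start held, 59.3% and 62.7% inside genes, and 59.1% and 64.7% of genes with a start-site region; 5000 bp left 684 regions with a median length of 1326.5 bp. Without regions that held a start, 61.5% lay inside genes, 31.8% had 1 interval, 42.3% had 3 or more, the median length was 1305 bp, and 12.1% of all genes were assigned a region. With 2 or more intervals required, 11.5% held a start, 51.6% lay inside genes, 65.3% had 3 or more intervals, the median length was 1624 bp, the median peak value was 32, 39.8% of genes had a start-site region too, and 9.77% of all genes were assigned a region. Each of these alternatives changes which regions or intervals enter. At 2000 and 5000 bp the shares of 1 interval and of 3 or more, and at all 3 limits the median peak value, stayed inside the interval of the reported value. Of 26 list shares, none moved outside its interval when regions that held a start were left out, and 7 did when 2 or more intervals were required: homeobox clusters, fibroblast, erythroid, and neuronal and Schwann genes (0% each), other developmental transcription factors (20.6%), calcium handling (4.88%) and protocadherins (6.67%). Depth is unknown, a peak value is a maximum over libraries, and with 1 library a group no spread between animals can be given.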

Other observations

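The island regions assigned to a gene but away from starts had 29.2% of 1 interval and 46.2% of 3 or more, with a median length of 1375 bp. A further 473 island regions were assigned to no gene and so lay outside the set; they had 24.3% of 1 interval (20.5 to 28.4) and 49.3% of 3 or more (44.7 to 53.9), with a median length of 1407 bp. Of the regions without island and without gene, 2540 in number, 76.5% had 1 interval and 6.02% had 3 or more. Regions that overlapped more than 1 island were 5.88% of the island regions away from starts, against 3.66% of start-site island regions. The share was 31.5% for the 111 that held a start, all over 2000 bp by the rule, and 17.5% for all 337 island regions away from starts over 2000 bp.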
